A study of Mus musculus with 10 samples.

Results

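The nuclear-encoded subunits of oxidative phosphorylation were followed in microglia of the diabetic mouse retina. They were chosen by symbol, as protein-coding genes of the Nduf, Sdh, Uqcr, Cyc1, Cox4 to Cox8 and Atp5 families. Measured levels were no criterion of the rule, though the choice was made with earlier results of these data known. The rule found 88 genes of 55487, of which 38 fall to complex I, 4 to complex II, 9 to complex III, 19 to complex IV and 18 to complex V. All 10 libraries came from Cx3cr1GFP/+ mice, which carry a green fluorescent protein in place of 1 copy of the fractalkine receptor gene, so controls carry it too. The retinas of both eyes of an animal were pooled and digested, and viable GFP-positive cells were sorted, a gate that also takes other myeloid cells that express the receptor. The groups were littermates labelled Control (n = 3) and mice 4 weeks (4wk STZ, n = 3) or 8 weeks (8wk STZ, n = 4) after streptozotocin (STZ), a toxin of insulin-producing beta cells that makes mice diabetic. The labels give no age for the animals, so time after STZ and age cannot be told apart.

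Oxidative phosphorylation makes ATP at the inner mitochondrial membrane. Complexes I and II take electrons from NADH and succinate, complex III passes them to cytochrome c, complex IV gives them to oxygen, and the proton gradient built on the way drives complex V, the ATP synthase. Most subunits are coded in the nucleus and imported, while a small set of core subunits of complexes I, III, IV and V is coded by mitochondrial DNA, so that the assembled enzymes need both genomes. Complex II alone is wholly nuclear and is also an enzyme of the TCA cycle.

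Library totals ran from 33266838 to 62903489 reads. Every library held the markers of its label: the 20 microglia markers all had reads and took 8.72 to 11.2% of reads, with Control at 9.40 to 10.4% and 8wk STZ at 10.0 to 11.2%. Rod photoreceptor markers (16 genes) took 1.31 to 1.44% in the Control libraries, 0.723 to 1.03% at 4 weeks and 0.502 to 0.658% at 8 weeks. Markers of Müller glia and astrocytes took 0.29 to 0.589% in Control and 0.627 to 2.10% in 8wk STZ as a summed share. Yet their median log2 fold change at 8 weeks was -0.97, with 4 of 16 called lower and 0 higher. The higher sum therefore does not describe most genes of that list. Markers of lymphocytes took at most 0.000671% of reads in any library and those of red cells at most 0.00634%. Border macrophage and monocyte markers took 0.0156 to 0.0437% in Control and 0.00732 to 0.0701% in 8wk STZ, with none called. Markers of the retinal pigment epithelium took 0.000719 to 0.00142% in Control and 0.00115 to 0.00747% in 8wk STZ. None of these was called at 8 weeks either (median log2 fold change 1.53). In bulk samples, fewer cells of a type and less RNA per cell cannot be told apart.

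Of the 88 genes, 68 matched the RefSeq promoter table (GRCm38.p6) by symbol, with 73 start sites. In the 250 bases before these starts, the letters GCGCANGCG, a core of the site of NRF1, an activator of many respiratory genes, were found on either strand in 15 windows (20.5%), against 5.16% of all 32851 windows. The letters CCGGAAG, a core of the sites of ETS factors such as the respiratory activator GABP, were in 12 windows (16.4%, against 6.91%), and AANATGGCG, a core of the YY1 site, in 3 (4.11%, against 1.12%). None of the motifs contains another, and both strands were searched. Such matches are letters in a window and show no binding. The promoters of 3 complex II genes are shown because the only called member, Sdha, belongs to it. Capitals mark NRF1 and ETS letters. The Sdha window (chr13:74350241-74350490, minus strand) holds the NRF1 letters 3 times, the Sdhd window (chr9:50603850-50604099, minus strand) holds them 1 time beside 1 ETS match, and the Sdhb window (chr4:140961021-140961270, plus strand) holds neither.
Sdha: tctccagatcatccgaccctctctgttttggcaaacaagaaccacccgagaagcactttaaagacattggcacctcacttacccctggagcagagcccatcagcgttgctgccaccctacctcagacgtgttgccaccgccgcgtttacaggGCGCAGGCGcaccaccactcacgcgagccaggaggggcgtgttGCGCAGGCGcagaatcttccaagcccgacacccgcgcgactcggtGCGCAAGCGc
Sdhd: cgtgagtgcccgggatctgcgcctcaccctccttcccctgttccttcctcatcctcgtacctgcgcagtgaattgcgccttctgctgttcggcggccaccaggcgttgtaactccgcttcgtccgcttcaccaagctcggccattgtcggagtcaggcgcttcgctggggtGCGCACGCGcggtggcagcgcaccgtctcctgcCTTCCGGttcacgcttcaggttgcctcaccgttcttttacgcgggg
Sdhb: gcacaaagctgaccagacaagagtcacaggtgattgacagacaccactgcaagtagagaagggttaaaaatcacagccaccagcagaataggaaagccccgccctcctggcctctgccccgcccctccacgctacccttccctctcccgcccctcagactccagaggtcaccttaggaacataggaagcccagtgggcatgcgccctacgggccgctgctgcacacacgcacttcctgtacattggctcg

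Transcripts of nearly all members were found in every library at moderate levels. Of the 88, 84 passed the filter on low counts. The other 4 were Cox7b2 and Cox8c, testis-type isoforms with no read in any library, Cox8b, with 3 reads in 4wk STZ 3, 2 in 8wk STZ 3, 1 in 8wk STZ 4 and none elsewhere, and a second Ensembl entry of Atp5o without a read. Among the 84, 77 had a mean of at least 20 CPM (a gene's reads scaled to the size of its library, here with TMM factors) over the 10 libraries. The most abundant by CPM were Atp5a1 and Atp5b, the alpha and beta subunits of the catalytic head of ATP synthase, at means of 485 and 463, and Cox4i1, the largest nuclear-encoded subunit of complex IV, at 449.7. Per kb of exonic sequence the order changed. Cox6a1 and Cox4i1 of complex IV led at 307 and 290 CPM per kb, followed by Cox8a at 190 and Cox6b1 at 175, while Atp5a1 stood at 155. With the length of the principal transcript in place of all exonic bases, a choice made after seeing the data, Cox4i1 stood at 588 and Cox6a1 at 377 CPM per kb, so these orders depend on the length used.

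The members' fold changes centered near 0 at either time. Against Control, the median log2 fold change of the 84 tested members was -0.03 at 4 weeks and -0.000618 at 8 weeks, where 42 lay above 0 and 42 below, and the medians over all 18957 tested genes were -0.00388 and -0.0061. At 4 weeks no member passed edgeR's quasi-likelihood test (adjusted p below 0.05), and neither did any gene of the whole table (0.0%); DESeq2, limma-voom and edgeR's likelihood ratio test also called no member. At 4 weeks 4 members had an unadjusted p below 0.05 (4.76%, against 9.75% of all genes, or 13.4% of all genes with a mean of at least 20 CPM). At 8 weeks 1 member was called, Sdha, which was lower, against 2.37% of all genes. Calls were more frequent among abundant genes. Of the 6182 tested genes with a mean of at least 20 CPM, 347 were called. Of the 755 with at least 200 CPM, the level of Sdha, 100 were called, 82 of them lower. At 8 weeks 12 members had an unadjusted p below 0.05, 3 higher and 9 lower (14.3%, against 15.7% of all genes and 26.3% of those with at least 20 CPM). The members' shares are close to or under the background, so these counts, the call of Sdha included, are no result about the members as a set. The same holds for groups that do not overlap, which was seen for 3 members at 4 weeks (3.57%, against 12.3%) and 8 members at 8 weeks (9.52%, against 16.9%). Between 8wk STZ and 4wk STZ, Sdha alone was called among members, against 0.918% of genes. Of the genes with at least 20 CPM, 146 of 6182 were called, and of those with at least 200 CPM 47 of 755, 39 of them lower. In this comparison 10 members had an unadjusted p below 0.05 (11.9%, against 13.7% of all genes, or 23.2% of those with at least 20 CPM). The groups did not overlap for 6 members (7.14%, against 15.4%). The members had smaller errors than most genes, with a median SE of 0.151 and 0.141 at 4 and 8 weeks against 0.411 and 0.385 over all genes. At a mean of at least 20 CPM the gap was small. There the median SE was 0.149 and 0.14 for members against 0.173 and 0.162 for all tested genes.

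**Figure D1:**
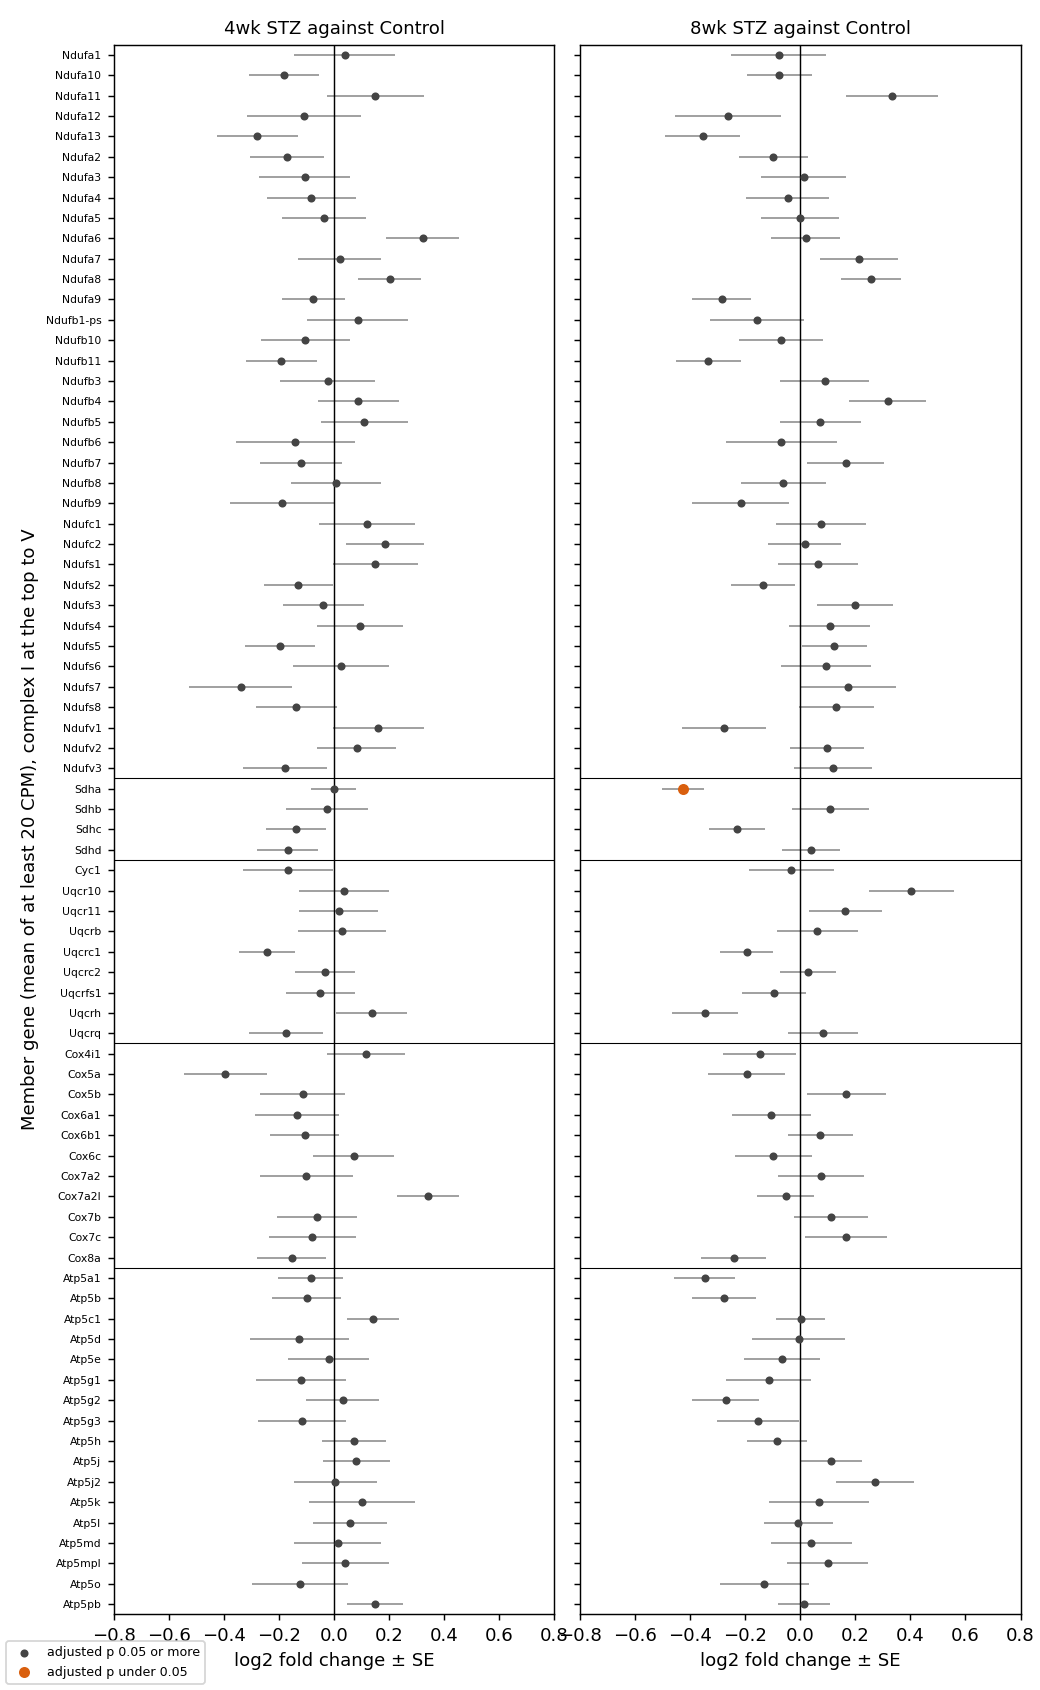
Log2 fold change ± SE (x axis) of the 77 members with a mean of at least 20 CPM (y axis, by complex) for 4wk STZ and 8wk STZ against Control, edgeR fit over 10 libraries. Points spread on either side of 0 in both panels, and Sdha at 8 weeks is the colored point, the only member called.

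In the table the authors deposited, 81 members were listed. None had an FDR below 0.05 at 4 weeks, against 0.801% of 14475 listed genes, and Sdha alone was lower at 8 weeks, against 7.29% of genes. The authors' deposited table gives Sdha a log2 fold change of -0.43 at 8 weeks, with an FDR of 0.00569.

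Of complex II, or succinate dehydrogenase, 1 of 4 members was called, with 2 above 0 and 2 below at 8 weeks. Sdha, its flavoprotein subunit that oxidizes succinate (chromosome 13, 74322254 to 74350280, minus strand, GRCm38), stood at 391, 439 and 399 CPM in Control and 411, 433 and 383 CPM in 4wk STZ. In 8wk STZ it stood at 308, 308, 302 and 301 CPM. The 4 libraries of 8wk STZ lay close together and below every other library, while Control and 4wk STZ overlapped. Sdha was 305 ± 4.02 CPM at 8 weeks against 409.7 ± 25.7 CPM in Control (SD, n = 4 and 3), a log2 fold change of -0.43 (SE 0.076, edgeR adjusted p = 0.0164). Against 4wk STZ, at 409 ± 25.3 CPM, the log2 fold change was also -0.42 (SE 0.076, adjusted p = 0.0324), and at 4 weeks against Control it was -0.00258 (adjusted p = 0.996). The fall against Control was called in 15 of 20 alternatives, with a log2 fold change from -0.48 to -0.32. It was lost without Control 2 (adjusted p = 0.0613), 8wk STZ 3 (0.0517) or 8wk STZ 4 (0.0538), with a replicate block (0.103), and when scaled by library totals alone (0.0578). The fall against 4wk STZ was called in 7 of 20.

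The other members of complex II gave no call. Sdhb, the iron-sulfur subunit of the same catalytic head, stood at 122, 175 and 176 CPM in Control, 166, 150 and 149 in 4wk STZ and 175, 144, 191 and 170 in 8wk STZ. These ranges overlapped (log2 fold change 0.11 at 8 weeks, SE 0.14, adjusted p = 0.812). Sdhc and Sdhd are the small subunits that anchor the head in the membrane and bind ubiquinone. Sdhc stood at 93.9, 105 and 109 CPM in Control, 92.2, 104 and 82.8 in 4wk STZ and 86.2, 85.3, 89.98 and 88.5 in 8wk STZ. The 8wk STZ libraries of Sdhc were all under the Control libraries, yet the difference did not pass (log2 fold change -0.23, SE 0.102, adjusted p = 0.302). Sdhd was 134.6 ± 12.4 CPM in Control libraries, 119.6 ± 14.4 at 4 weeks and 138 ± 6.72 in 8wk STZ (log2 fold change 0.04 at 8 weeks, adjusted p = 0.93). Whether the change of Sdha differs from that of Sdhb, Sdhc or Sdhd was not tested. The 4 complex II assembly factors listed beside them had no call in any comparison.

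**Figure D2:**
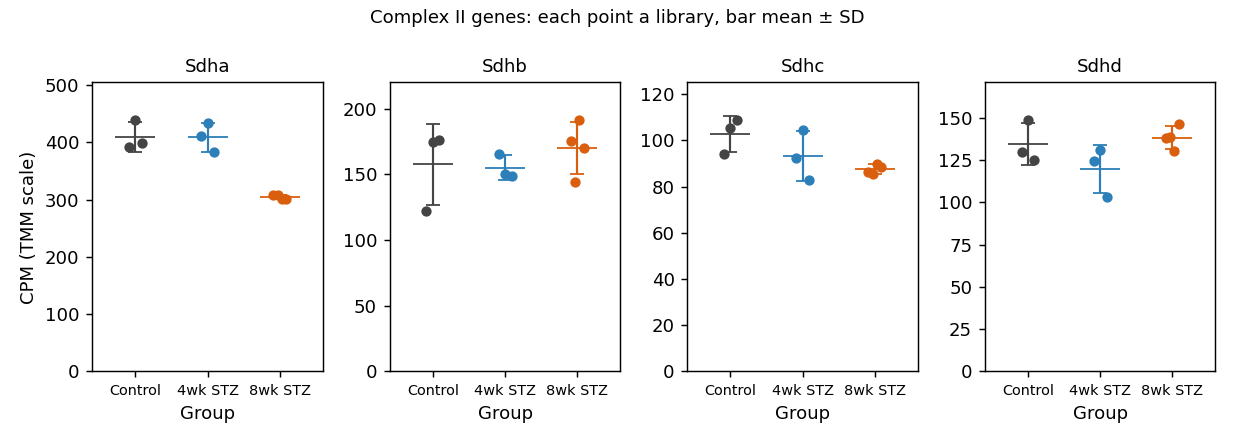
CPM of the 4 complex II genes (y axis, from 0) by group (x axis), each point 1 library with a bar for mean ± SD. The 8wk STZ libraries of Sdha sit at 301 to 308 CPM, below every Control and 4wk STZ library (383 or more), while Sdhb and Sdhd overlap across groups.

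Several marker lists moved with group beside the Sdha result. Rod markers took 0.502 to 0.658% of reads in the 8wk STZ libraries, and all 16 were called lower at 8 weeks against Control (median log2 fold change -1.44), with none called at 4 weeks. Of the microglia markers 1 was called higher and 5 lower at 8 weeks (median -0.19), and of the 16 Müller glia and astrocyte markers 4 were called lower (median -0.97), although the summed share of that list was higher at 8 weeks, at 0.627 to 2.10% of reads against 0.29 to 0.589% in Control, so the 2 measures differ in direction. Markers of amacrine, horizontal and ganglion cells took 0.00826 to 0.0111% of reads at 8 weeks against 0.0186 to 0.0206% in Control, with 3 called lower. Markers of pericytes, smooth muscle and fibroblasts took 0.00468 to 0.00667% against 0.0135 to 0.0166%, with 1 called lower, and bipolar cell markers 0.00234 to 0.00513% against 0.00559 to 0.0102%, with none called. Among cone markers 1 was called lower, while the summed share overlapped between the groups. Their part in the fall of Sdha was not tested. Sdha lies at the high end of the members, where genes in general were lower at 8 weeks. All 755 tested genes with a mean of at least 200 CPM had a median log2 fold change of -0.13, and the 8 members at that level (Sdha, Uqcrc1, Cox4i1, Cox6a1, Atp5a1, Atp5b, Atp5c1, Atp5pb) had a median of -0.17. Both level classes were set after values were seen.

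No member of complex V passed. Atp5a1 had the smallest unadjusted p among members after Sdha at 8 weeks (0.00916). Atp5a1 stood at 544, 558 and 519 CPM in Control, 543, 549 and 436 in 4wk STZ and 489, 378, 396 and 435 in 8wk STZ. The 8wk STZ libraries were below the Control libraries but overlapped with 4wk STZ (log2 fold change against Control -0.35, SE 0.11, adjusted p = 0.14). DESeq2 called it (adjusted p = 0.0361). Atp5b stood at 490, 597 and 439 CPM in Control and 468, 368, 413 and 428 in 8wk STZ, which overlapped (log2 fold change -0.28, SE 0.117, adjusted p = 0.275). The central stalk subunit Atp5c1 had a log2 fold change of 0.000831 at 8 weeks and Atp5pb, a subunit of the peripheral stalk, 0.01. The c ring, the rotor that turns as protons pass, is coded by 3 genes for an identical mature subunit. Atp5g1, Atp5g2 and Atp5g3 had means of 81.2, 103 and 73.1 CPM in Control, and log2 fold changes of -0.12, -0.27 and -0.15 at 8 weeks with adjusted p of 0.819, 0.318 and 0.731. Of the 17 tested members of the complex, 10 lay below 0 and 7 above (median -0.00679 at 8 weeks).

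In complex III, small subunits lay on both sides of 0. Uqcrh, the hinge protein that helps cytochrome c dock, stood at 146, 154 and 151 CPM in Control, 143, 172 and 182 in 4wk STZ and 141, 109, 118 and 106 in 8wk STZ. The 8wk STZ libraries were below every other library, but the log2 fold changes of -0.35 against Control and -0.48 against 4wk STZ did not pass in edgeR's quasi-likelihood test (adjusted p = 0.177 and 0.0921). Against 4wk STZ, DESeq2 (0.00547) and edgeR's likelihood ratio test (0.0198) called Uqcrh. Uqcr10, a small subunit of the complex, stood at 52.2, 69.0 and 50.0 CPM in Control and 82.0, 59.2, 74.9 and 85.5 in 8wk STZ, which overlapped (log2 fold change 0.40, SE 0.155, adjusted p = 0.23). Uqcrc1, a core protein of the complex, stood at 434, 477 and 460 CPM in Control and 409, 370 and 377 in 4wk STZ, without overlap (log2 fold change -0.24, SE 0.103, adjusted p = 0.482). Cyc1, cytochrome c1, and Uqcrfs1, the Rieske iron-sulfur protein, which carry electrons, had log2 fold changes of -0.03 and -0.10 at 8 weeks.

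In complex I, 38 members were tested and none was called. At 8 weeks 21 lay above 0 and 17 below, with a median of 0.02. The 7 core subunits that hold the flavin and iron-sulfur centers had a median of 0.10 at 8 weeks. Among them Ndufv1, the NADH-binding subunit, stood at 102, 127 and 91.1 CPM in Control and 81.0, 80.0, 89.6 and 102 in 8wk STZ (log2 fold change -0.28, adjusted p = 0.443). Ndufs7, a subunit near the ubiquinone site, went the other way between the times, from 76.6 ± 14.3 CPM in 4wk STZ to 109 ± 18.1 in 8wk STZ, where the libraries overlapped (log2 fold change 0.51, adjusted p = 0.226). The supernumerary subunit Ndufa6 was 104 ± 7.25 CPM in Control libraries, 130 ± 20.3 at 4 weeks and 106 ± 10.5 at 8 weeks (log2 fold change 0.32 at 4 weeks, adjusted p = 0.476). Ndufa9, Ndufa13 and Ndufb11 had log2 fold changes of -0.29, -0.36 and -0.33 at 8 weeks, and did not pass (adjusted p = 0.213, 0.23 and 0.194). Ndufa13 shares 30% of its exonic sequence with Tssk6 on the opposite strand, and Ndufb11 12.9% with Rbm10. The library kit does not mark strand, so such reads cannot be told apart. Ndufa4, which the rule puts here by its symbol, is now placed in complex IV, and Ndufa4l2, its low relative at 0 to 2.59 CPM, is no complex I subunit. The file lists Ndufb4 in 3 rows, counted as 1 gene, and gives Ndufb1-ps and Cox5b-ps as protein-coding. Of all members, 32 share some exonic sequence with another gene.

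Complex IV is the complex with most tissue-specific isoforms, and the ubiquitous forms had the higher levels in these libraries. Cox4i1 stood at 409, 492 and 467 CPM in Control against 2.31, 7.79 and 9.5 for Cox4i2, the form known from hypoxia and lung. Cox6a1 stood at 211, 252 and 221 CPM against 4.17, 7.81 and 5.47 for Cox6a2, the heart and muscle form. Per kb of exonic sequence, Cox6a1 and Cox6a2 differed at 307 against 9.87, and Cox4i1 and Cox4i2 at 290 against 6.72. Cox6b2, of testis, ranged from 0.856 to 3.88 CPM and Cox7a1, of heart and muscle, from 0.291 to 1.5 CPM over the 10 libraries. Cox7a2, Cox7b and Cox8a had higher CPM per kb than Cox7a1, Cox7b2, Cox8b and Cox8c of their groups. Cox6a2 shares 10.3% of its exonic sequence with Itgad on the opposite strand. None of the ubiquitous subunits was called at either time. Cox5a, a subunit of its matrix side, had the smallest p among them at 4 weeks, at 51.3 ± 8.97 CPM in Control and 38.9 ± 3.28 in 4wk STZ (log2 fold change -0.40, SE 0.151, adjusted p = 0.451).

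**Figure D3:**
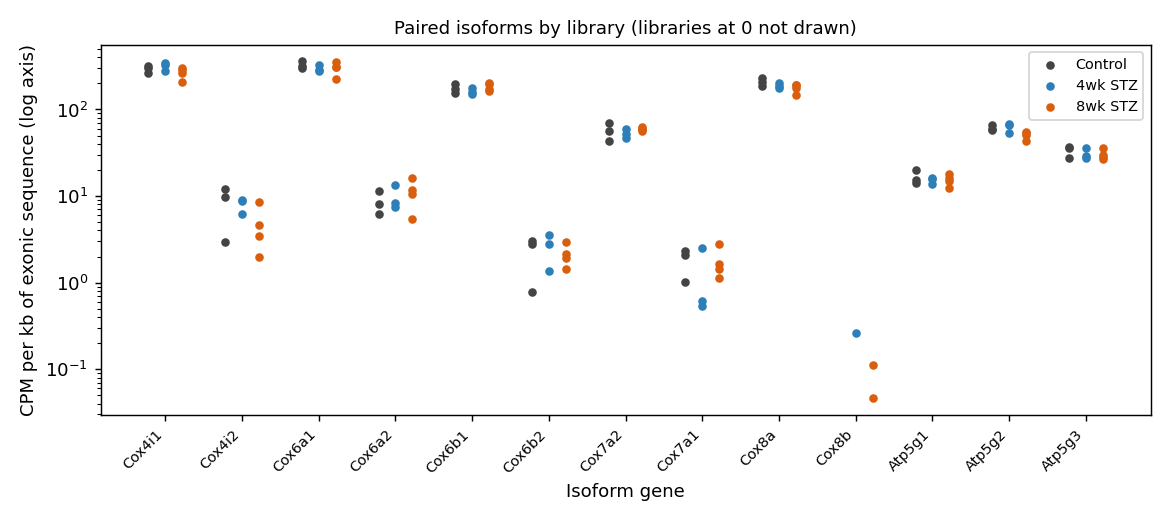
CPM per kb of exonic sequence (y axis, log scale) of isoform genes of complexes IV and V (x axis), each point 1 library, colored by group, with libraries at 0 not drawn. The ubiquitous genes Cox4i1, Cox6a1, Cox6b1 and Cox8a lie far above Cox4i2, Cox6a2, Cox6b2 and Cox8b in every group.

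Cox7a2l, which joins complexes III and IV into supercomplexes, had its highest levels at 4 weeks. It stood at 193, 174 and 181 CPM in Control, 211, 259 and 223 in 4wk STZ and 194, 153, 176 and 180 in 8wk STZ. The 4wk STZ libraries were above all others. It did not pass at 4 weeks against Control (log2 fold change 0.34, SE 0.112, adjusted p = 0.363) or between 8wk STZ and 4wk STZ (log2 fold change -0.39, SE 0.104, adjusted p = 0.114), where DESeq2 (0.0105) and the likelihood ratio test (0.0436) called it.

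The summed level of the members gave no step between groups. The sum over all 88 was 7916, 9500 and 8588 CPM in Control, 8201, 8733 and 8557 in 4wk STZ and 8924, 7326, 8462 and 7978 in 8wk STZ. The groups overlap, at 8668 ± 795, 8497 ± 271 and 8173 ± 684 CPM. Of the complexes, only complex II had 8wk STZ libraries below every Control library, at 675 to 713 CPM against 737 to 868, and Sdha is the largest part of that sum.

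The mitochondrially encoded partners of these subunits did step down. Their summed CPM over 13 genes was 15900, 14490 and 16200 in Control, 13070, 15990 and 19020 in 4wk STZ and 9726, 7525, 8343 and 6405 in 8wk STZ. The 8wk STZ libraries lay below all the others. At 8 weeks all 13 lay below Control and 9 were called lower, against 2.37% of all genes called. Of the 755 tested genes with a mean of at least 200 CPM, a level that not all 13 reach, 100 were called, 82 of them lower. The median log2 fold change of the 13 was -1.07, while the nuclear members had a median of -0.000618. The part of the lower rod marker share in this fall was not tested. The ratio of nuclear to mitochondrially encoded sums was 0.498, 0.656 and 0.53 in Control, 0.627, 0.546 and 0.45 in 4wk STZ and 0.918, 0.974, 1.01 and 1.25 in 8wk STZ. No p is given for this ratio. With 1 of the 10 libraries left out in turn, 7 to 9 of the 13 were called lower at 8 weeks against Control, and with the replicate block none was called.

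**Figure D4:**
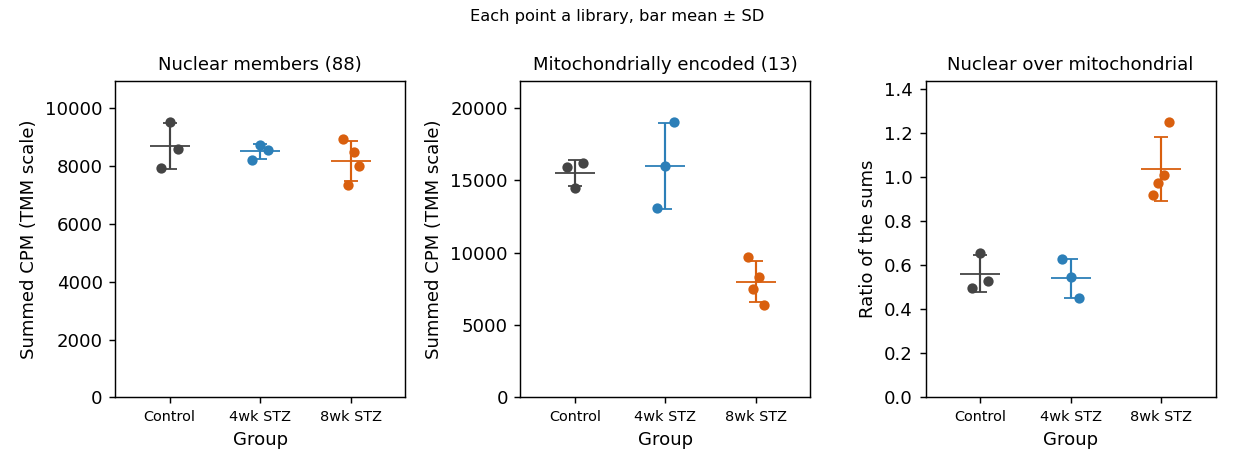
Summed CPM of the 88 nuclear members, summed CPM of the 13 mitochondrially encoded subunits and the ratio of these sums (y axes, from 0) by group, each point 1 library with a bar for mean ± SD. Nuclear sums overlap between groups, while the 8wk STZ mitochondrially encoded sums (6405 to 9726) lie below all others (13070 or more).

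Other genes of the pathway also gave few calls. Of the complex I assembly factors, 17 tested, none was called in any comparison, and neither were those of complexes II, III and V or the 17 genes of the TCA cycle. Of 20 tested complex IV assembly factors, 1 was called at 8 weeks against Control and 1 between 8wk STZ and 4wk STZ. Over all tested genes these shares were 2.37% and 0.918%. Of the 6182 with at least 20 CPM, a level that not all 20 reach, 347 and 146 were called. So 1 call in 20 is no result about this list as a set. Cox14, which stabilizes new Cox1 protein, stood at 53.2 ± 2.45 CPM in Control and 79.6 ± 9.31 in 8wk STZ (log2 fold change 0.58, SE 0.111, adjusted p = 0.0226). Coa5 was lower by 0.47 on the log2 scale in 8wk STZ than in 4wk STZ (adjusted p = 0.035). With 1 of the 10 libraries left out in turn, Cox14 was called in 5 fits and Coa5 in 1, and Cox14 was lost without Control 1, 2 or 3 (adjusted p = 0.0654, 0.0613 and 0.0869) and without 8wk STZ 1 or 4 (0.0574 and 0.0677). The 5 tested subunits and partners named outside the rule had a median log2 fold change of 0.30 at 8 weeks, and none was called. Atpif1, an inhibitor of ATP synthase, had 50.2 ± 3.61 CPM in 8wk STZ against 35.1 ± 3.23 in Control (log2 fold change 0.52, adjusted p = 0.0747). Ndufab1 had 44.2 ± 3.99 CPM against 31.2 ± 4.92 (log2 fold change 0.50, adjusted p = 0.101). Cycs and Dmac2l lay slightly below 0, at -0.03 and -0.000977.

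Members varied together from library to library within a group. In Control, Control 1 was the lowest library for 63 of the 84 tested members (75%, against 34.4% of all tested genes) and Control 2 the highest for 63 (75%, against 32.9%). In 8wk STZ, 8wk STZ 2 was lowest for 45 (53.6%, against 27.0%) and 8wk STZ 1 highest for 46 (54.8%, against 24.9%). In 4wk STZ, 4wk STZ 1 was lowest for 48 (57.1%, against 35.0%). Relative to the mean of its group, Control 1 had a median deviation of -0.16 on the log2 scale over the 77 members with at least 20 CPM, Control 2 of 0.17, 8wk STZ 1 of 0.13 and 8wk STZ 2 of -0.14. The 452 tested genes with under 1500 exonic bases and at least 20 CPM, 35 of them members, had medians of -0.09, 0.10, 0.14 and -0.12, while 5728 longer genes had medians of 0.0016, -0.01, 0.01 and 0.0089. Members of 1500 exonic bases or more (42 genes) had -0.15, 0.16, 0.12 and -0.15. The part of gene length in this was not tested.

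**Figure D5:**
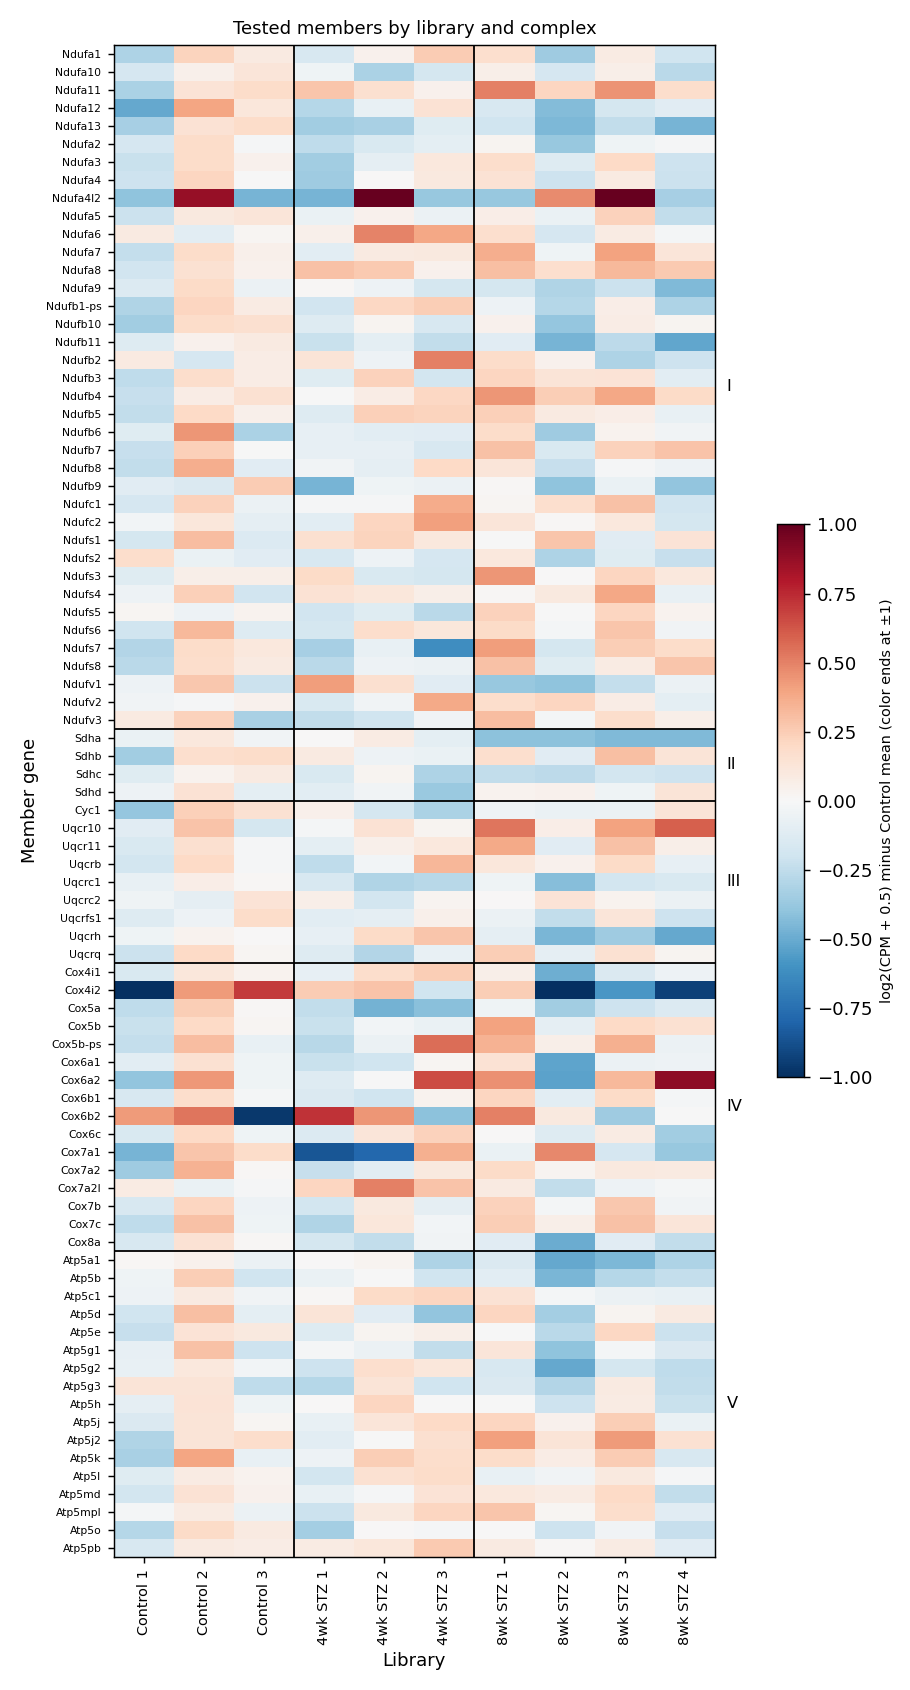
Log2(CPM + 0.5) of each of the 84 tested members (rows, by complex) in each library (columns) minus its mean over Control, with red above and blue below, and color ending at ±1. Control 1 is mostly blue and Control 2 mostly red, and the Sdha row is blue in all 4 8wk STZ libraries.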

How the data were processed

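RNA from sorted retinal microglia was copied with the SMARTer Ultra Low kit from 1.0 to 2.0 ng per sample and read in pairs on a NovaSeq, per the labels' protocols. The authors deposited raw read counts per gene, per the file headers, on GRCm38 per the submitters' processing notes, which name bcl2fastq, STAR, featureCounts, Salmon, edgeR and limma. The sources used here give neither annotation release nor strand setting. A second table holds the authors' own log2 fold changes and p-values with FDR, per the file headers, and was used only where it is named.

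Of 55774 rows, 287 repeating an identifier were dropped. Counts were scaled by TMM, filtered by filterByExpr (18957 genes) and tested in edgeR 4.0.16 (R 4.3.3) by the robust quasi-likelihood test over the 10 libraries and 3 groups (7 residual degrees of freedom) with Benjamini-Hochberg adjustment over all genes. A call is an adjusted p below 0.05. Each library is a separate animal, so p-values measure spread between animals. The procedure was tested on simulated data with planted changes larger than that of Sdha, so this test does not bear on changes of that size. DESeq2 1.42.0, edgeR's likelihood ratio test, limma-voom (limma 3.58.1), other scalings and filters, and libraries left out were alternatives. Replicate numbers are not known to pair the libraries, so the main fit used no block. Exonic lengths and coordinates come from GENCODE vM21 and promoter sequences from RefSeq GRCm38.p6. Members, lists and the naming rule were chosen with earlier results of these data known. The rule names called members, the 2 most abundant per kb and the 2 of smallest p per complex and comparison, all isoform groups and the Sdh genes. A few others are named as examples after their values were seen. The median log2 values of length and level classes were set after values were seen.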

Additional observations from a re-analysis of the deposited data

Results flagged for a closer look

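Sdha, the flavoprotein of succinate dehydrogenase, stood out because its change against Control differed between the times. The difference in log2 fold change, 8 weeks minus 4 weeks, was -0.425 (edgeR adjusted p = 0.0324), with all 4 libraries of 8wk STZ below all 3 of 4wk STZ. This is the same contrast as 8wk STZ against 4wk STZ, since the same Control libraries serve both times, and it was called in 7 of 20 alternatives. Of 43 sets of values over the 4 libraries of 8wk STZ, none held a library far from the others (Dixon critical value 0.829). Control and 4wk STZ, with 3 libraries each, were outside this check.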

How the results depend on the processing

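The median log2 fold change of the members and their summed CPM stayed within the spread between libraries (0.131 on the log2 scale for the medians) under every alternative run. No result changed direction past its threshold. At 4 weeks no member was called in any alternative. For 8wk STZ against Control, where 1 member was called, DESeq2 called 2, library totals 0 and the replicate block 0, and leaving out a library gave 0 to 1. For 8wk STZ against 4wk STZ, DESeq2 and edgeR's likelihood ratio test called 3 each, and library totals, no filter on low counts, only the 2 groups compared, the replicate block and leaving out Control 3 and 4wk STZ 3 together called 0 each, and leaving out a library gave 0 to 1. Same-numbered libraries correlated by -0.0297 to 0.0348 in their deviations from the group means, and differently numbered ones by -0.0393 to 0.0394. No pairing by number was seen in this check, and a batch shared by number was not tested. The shift of the median of all genes with library totals was 0.0984 at 8 weeks. The fall of Sdha relative to that median was -0.42 under each scaling. A scaling factor moves all genes of a library alike, so this value is no check on the fall. Counts limit Cox8b, with reads in 3 libraries. The cause of the lost calls was not tested.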
